A study of Mus musculus with 12 samples.

Results

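Microglia are the resident macrophages of the brain. Here AE1-329, which activates EP4, a receptor of prostaglandin E2, was given alone and set against vehicle. The comparison uses the 3 arrays of each of these groups, 6 of the 12 arrays in the series. They were chosen by their labels, not by any measured value. All cells were primary microglia of C57BL/6J mouse pups, isolated at postnatal day 7 by CD11b beads and kept in culture for 3 days. Treatment then lasted 6 h. The vehicle group had 0.4% DMSO and 0.001% ethanol, and the AE1-329 group had 0.4% DMSO and AE1-329 at 100 nM, with no Aβ42 in either. The other 6 arrays came from cells of the same kind given Aβ42 at 10 µM, alone or with AE1-329. Cells of 3 litters served as the replicates of every treatment, so arrays with the same replicate number share a litter. One dose and one time point were measured, in neonatal cells outside the brain.

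EP4 is a Gs-coupled receptor. Its activation raises cyclic AMP (cAMP), which activates protein kinase A and, through it, the transcription factor CREB, and also EPAC exchange factors. CREB switches on a fast set of genes, among them NR4A nuclear receptors, the repressor CREM and cAMP phosphodiesterases, several of which then limit the signal. In macrophages, prostaglandin E2 acting through EP4 is known both to restrain the release of TNF and chemokines and to favour some other inflammatory products.

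Levels are log2 values of 1 probe set per gene, given in the order of replicates 1, 2 and 3. A change is the AE1-329 mean minus the vehicle mean ± the standard error of the limma fit, with n = 3 arrays per group, and 1 log2 unit is 2-fold. Adjusted p is limma's, after Benjamini-Hochberg adjustment over 19938 genes, and a gene rose or fell where it was under 0.05. Microglia and macrophage markers stood high, with a mean level over the 11 measured members of 11.14 to 11.22 in the vehicle arrays and 11.02 to 11.04 with AE1-329. The same mean lay between 6.95 and 7.20 over all 6 arrays for astrocyte markers, 7.34 and 7.58 for oligodendrocyte lineage markers, 6.25 and 6.48 for neuron markers, 6.26 and 6.44 for neutrophil markers and 7.30 and 7.42 for monocyte and border macrophage markers. Of these 5 lists 1 member passed, the neutrophil receptor gene Cxcr2 (-0.31 ± 0.08, adjusted p = 0.0198), which no longer passed without vehicle replicate 3 (0.0642) or AE1-329 replicates 2 (0.0690) or 3 (0.0946). Without vehicle replicate 3, 1 of the 10 oligodendrocyte lineage markers fell, and with the litter as a block 1 astrocyte and 1 monocyte marker rose. Beside these marker counts, 4.71% of all genes rose and 5.45% fell, or 6.06% and 6.58% with the block. Of the 11 microglia markers Cx3cr1, P2ry12 and Aif1 fell and Itgam rose, and without AE1-329 replicate 1 Aif1 (adjusted p = 0.0600) did not pass. Itgam did not pass without vehicle replicates 1 (0.0787) or 2 (0.0644) or AE1-329 replicates 1 (0.0982), 2 (0.0933) or 3 (0.154). The median spread between replicates was 0.109 (SD) in vehicle and 0.065 with AE1-329.

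AE1-329 raised 939 genes and lowered 1087, which is 4.71% and 5.45% of those tested and 10.2% in both directions. The median change over all genes was -0.01, and most changes were small, since 54 genes rose and 21 fell by at least 2-fold (0.271% and 0.105%). Groups did not overlap for 2017 of the 2026 genes that passed, against 22.9% of all genes (10.4% higher and 12.6% lower with AE1-329). Without AE1-329 replicates 1, 2 or 3 the number that passed was 1460, 1410 and 1418. Without AE1-329 replicate 3 the number that rose was 592, and without AE1-329 replicate 2 the number that fell was 711. With the 6 arrays alone 970 passed, and without litters 1, 2 or 3 it was 1386, 812 and 892.

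**Figure D1:**
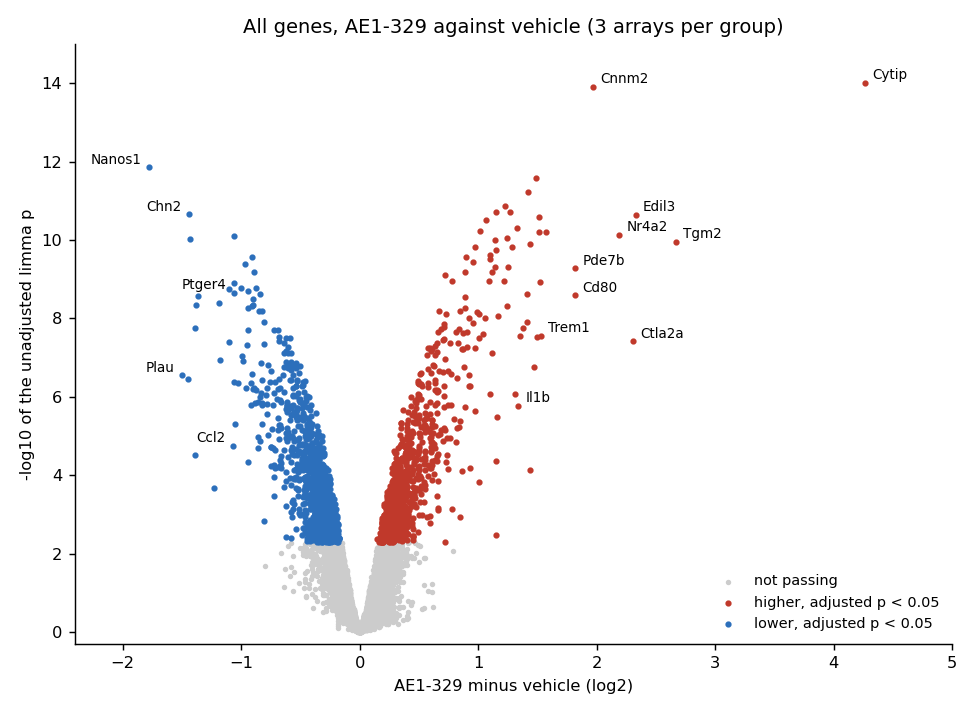
Each point is 1 of 19938 genes, with the change with AE1-329 (log2, AE1-329 minus vehicle) on the x axis and -log10 of limma's unadjusted p on the y axis. Red points rose (939 genes) and blue points fell (1087 genes) at an adjusted p under 0.05, and Cytip, at 4.26, lies far to the right of all other genes.

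The largest increase belonged to Cytip, whose product binds cytohesins and regulates the adhesion of leukocytes. Its levels were 6.96, 6.79 and 6.92 in vehicle and 11.06, 11.31 and 11.09 with AE1-329, an increase of 4.26 ± 0.10 or 19.2-fold (adjusted p = 1.23e-10). All 3 treated arrays lay more than 4 log2 units above every vehicle array. Cyth1, the cytohesin to which the Cytip protein binds, rose by 0.89 ± 0.06 (adjusted p = 1.06e-06). The transglutaminase gene Tgm2, a protein cross-linking enzyme, went from 7.5, 8.19 and 7.94 to 10.36, 10.63 and 10.66 (2.67 ± 0.14, 6.37-fold). Edil3, a secreted ligand of integrins, went from 5.99, 5.73 and 5.94 to 8.27, 8.09 and 8.29 (2.33 ± 0.11, 5.02-fold). For both genes the groups were far apart and the treated arrays close together. Ctla2a, which encodes an inhibitor of cathepsin-like proteases, went from 6.55, 6.17 and 6.51 to 8.53, 8.41 and 9.22 (2.31 ± 0.20), with replicate 3 the highest treated array and an increase of 2.06 without it. Ctla2a has a near-identical neighbour, Ctla2b, and the probe set may count both.

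The other members of the 15 largest increases were the nuclear receptor gene Nr4a2 (2.19 ± 0.11), the magnesium transport gene Cnnm2 (1.97 ± 0.05), the costimulatory ligand gene Cd80 (1.82 ± 0.12), the cAMP phosphodiesterase gene Pde7b (1.82 ± 0.11), Dgat1, which makes the last step of triglyceride synthesis (1.57 ± 0.08), the activating receptor gene Trem1 (1.53 ± 0.13), Crem (1.52 ± 0.10), Ttc39b (1.51 ± 0.07), Nr4a1 (1.51 ± 0.08), Thap6 (1.5 ± 0.12) and 1700025G04Rik (1.49 ± 0.06). Cnnm2 varied least, at 8.57, 8.65 and 8.56 in vehicle and 10.59, 10.55 and 10.55 with AE1-329. All 15 kept their call under every alternative processing and without any array or litter. In vehicle, 6 of them (Cytip, Edil3, Ctla2a, Pde7b, Trem1 and Crem) lay on every array below 7.35, the lowest median of an array over genes. The signal over background of these probe sets is unknown, and near the background a fold change is understated.

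The largest decrease was that of Nanos1, an RNA-binding repressor of translation. It stood at 10.80, 10.66 and 10.84 in vehicle and at 9.0, 8.89 and 9.05 with AE1-329 (-1.78 ± 0.06, 3.45-fold, adjusted p = 9.23e-09). Plau, the urokinase plasminogen activator, went from 11.5, 11.78 and 11.92 to 10.05, 10.27 and 10.39 (-1.5 ± 0.15, adjusted p = 3.53e-05). In both groups Plau was lowest in replicate 1 and highest in replicate 3, and each litter changed by a similar amount. Ch25h, which makes 25-hydroxycholesterol, went from 7.34, 7.26 and 7.80 to 6.06, 5.73 and 6.27 (-1.45 ± 0.15, adjusted p = 4.17e-05). Next came the Rac inhibitor gene Chn2 (-1.44 ± 0.07), the class IIa histone deacetylase gene Hdac9 (-1.43 ± 0.07), G530011O06Rik (-1.39 ± 0.22), Arap2 (-1.39 ± 0.11), the chemokine gene Ccl4 (-1.38 ± 0.10), the inhibitory collagen receptor gene Lair1 (-1.36 ± 0.09), AI504432 (-1.23 ± 0.24), Efr3b (-1.19 ± 0.08), Radx, a protector of replication forks (-1.18 ± 0.11), the potassium channel gene Kcnj2 (-1.10 ± 0.07), the Ras activator gene Rasgrp3 (-1.10 ± 0.09) and Ccl2 (-1.07 ± 0.16). The largest standard error was that of AI504432, at 9.47, 8.36 and 8.60 against 7.87, 7.22 and 7.64, and it alone of these 15 lost its call under an alternative, the one without litter 3 (-1.37, adjusted p = 0.0513).

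**Figure D2:**
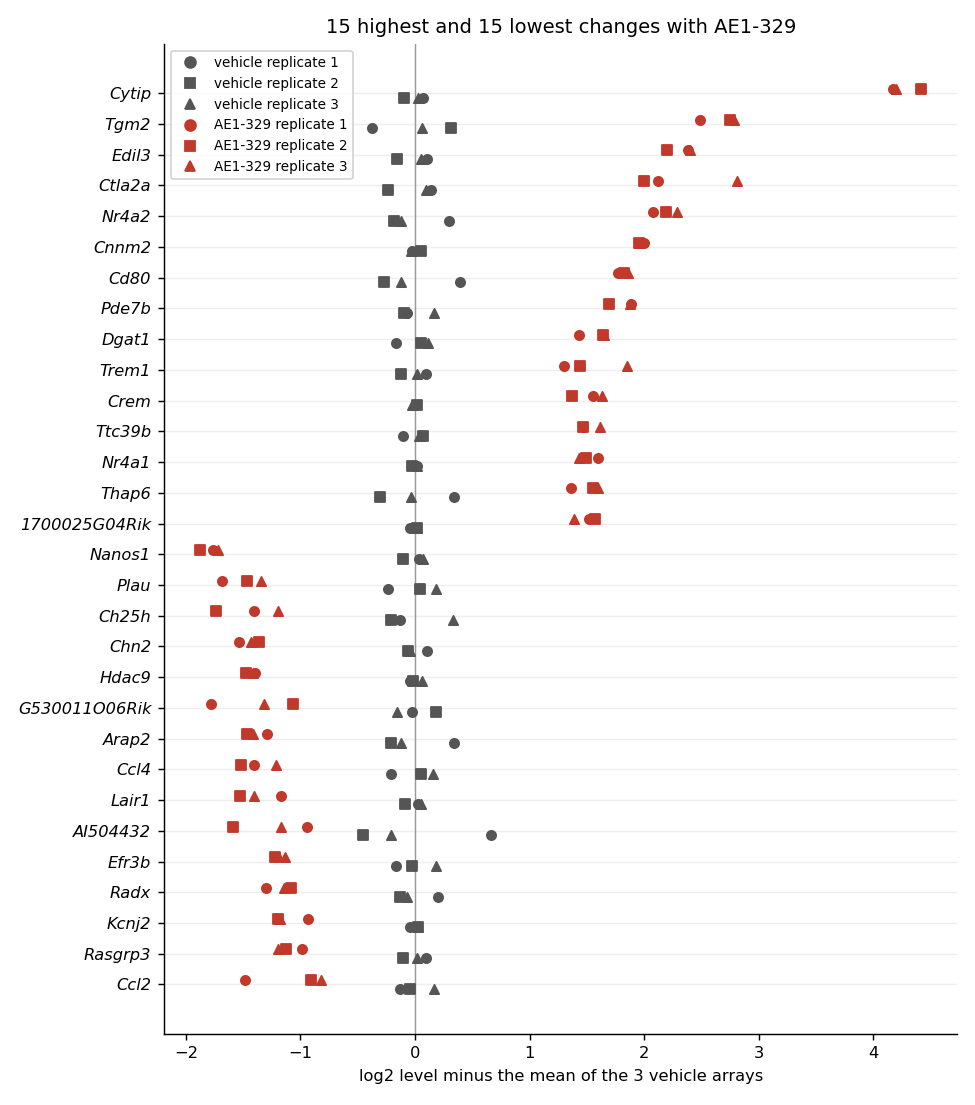
Rows are the 15 genes with the highest and the 15 with the lowest change, and the x axis is the log2 level of each array minus the mean of the 3 vehicle arrays, with vehicle in grey, AE1-329 in red and circles, squares and triangles for replicates 1, 2 and 3. In every row the 3 treated arrays lie on one side of the 3 vehicle arrays, because only genes without overlap were eligible, and the spread is widest for AI504432.

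The gene of the targeted receptor itself fell. Ptger4, which encodes EP4, stood at 9.26, 9.04 and 9.19 in vehicle and at 8.20, 8.08 and 8.05 with AE1-329 (-1.06 ± 0.07, 2.08-fold lower, adjusted p = 8.97e-07). The groups were apart by more than 0.8 log2 units. The other prostaglandin E2 receptors did not pass: Ptger2, the other Gs-coupled one, changed by -0.11 ± 0.09 (adjusted p = 0.581), Ptger3 by -0.10 ± 0.08 (0.535) and Ptger1 by -0.05 ± 0.06 (0.791). Of 15 measured genes of prostaglandin synthesis and breakdown 4 fell and none rose, against 5.45% and 4.71% of all genes, with a median of -0.05, and 1 rose without vehicle replicates 1 or 3. With the litter as a block 4 fell and 1 rose, against 6.58% and 6.06% of all genes. Pla2g4a, the phospholipase that frees arachidonic acid, went from 10.22, 10.05 and 10.19 to 9.35, 9.25 and 9.31 (-0.85 ± 0.06, adjusted p = 2.00e-06). The prostaglandin D2 synthase gene Hpgds changed by -0.61 ± 0.08 (0.000347), Hpgd, which inactivates prostaglandins, by -0.45 ± 0.06 (0.000571) and the thromboxane synthase gene Tbxas1 by -0.40 ± 0.06 (0.000702). Ptgs2, the inducible cyclooxygenase, did not pass (0.29 ± 0.23, adjusted p = 0.572). Its levels of 9.97, 9.64 and 9.02 in vehicle and 10.22, 9.95 and 9.31 with AE1-329 overlapped between groups, and replicate 3 was lowest in both. Within each litter the treated array was the higher one, by a similar amount, a pairing that the main fit does not use.

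Many known cAMP and CREB target genes rose. Of 34 measured, 17 rose, 3 fell and 14 did not pass, against 4.71% and 5.45% of all genes, with a median of 0.22 against -0.01. Nr4a2 went from 8.33, 7.85 and 7.91 to 10.11, 10.22 and 10.32 (2.19 ± 0.11, 4.58-fold, adjusted p = 8.63e-08). Nr4a1 went from 8.13, 8.09 and 8.13 to 9.71, 9.61 and 9.55 (1.51 ± 0.08, 2.85-fold, adjusted p = 7.92e-08). Nr4a3, the third member of this family of orphan nuclear receptors, changed far less, from 6.29, 6.29 and 6.20 to 6.67, 6.78 and 6.66 (0.44 ± 0.07, adjusted p = 0.000952). All 3 family members were apart between groups. Crem, whose short product ICER represses CREB targets, went from 7.23, 7.24 and 7.19 to 8.77, 8.59 and 8.85 (1.52 ± 0.10, adjusted p = 5.45e-07). The AP-1 subunit genes Fosl2 (1.15 ± 0.06, adjusted p = 1.36e-07) and Fos (0.93 ± 0.10, 5.49e-05) rose too. The 3 members that fell were Egr1 (-0.78 ± 0.08, adjusted p = 6.14e-05), Egr2 (-0.68 ± 0.07, 4.17e-05) and Atf3 (-0.39 ± 0.08, 0.00630), which are immediate-early transcription factors. Egr1 went from 9.54, 9.27 and 9.37 to 8.78, 8.49 and 8.57, so that within one class of fast-responding genes some rose and others fell at 6 h. Over the whole list of 15 immediate-early factors 3 rose and 4 fell.

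The promoters of the 3 NR4A genes are shown because these family members moved together, that of Dusp1 because it holds a full cAMP response element, and that of Cytip because that gene rose most. They run from 250 bases before to 50 after the gene start, 5′ to 3′ on the gene's own strand, from RefSeq in build GRCm38.p6. Capitals mark TGACG or, on the other strand, CGTCA, the short form of the CREB motif, and the full motif TGACGTCA, in which both overlap and which was counted as 1 short motif. Nr4a1 lies at chr15:101266596-101266895 on the plus strand, Nr4a2 at chr2:57123954-57124253 on the minus strand, Nr4a3 at chr4:48045055-48045354 on the plus strand, Dusp1 at chr17:26508423-26508722 on the minus strand and Cytip at chr2:58160073-58160372 on the minus strand.
Nr4a1: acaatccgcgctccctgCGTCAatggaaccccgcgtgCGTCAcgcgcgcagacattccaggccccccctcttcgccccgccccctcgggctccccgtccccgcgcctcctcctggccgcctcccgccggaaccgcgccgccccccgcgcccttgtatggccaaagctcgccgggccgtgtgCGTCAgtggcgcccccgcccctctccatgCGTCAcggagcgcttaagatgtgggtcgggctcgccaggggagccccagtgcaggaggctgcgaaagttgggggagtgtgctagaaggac
Nr4a2: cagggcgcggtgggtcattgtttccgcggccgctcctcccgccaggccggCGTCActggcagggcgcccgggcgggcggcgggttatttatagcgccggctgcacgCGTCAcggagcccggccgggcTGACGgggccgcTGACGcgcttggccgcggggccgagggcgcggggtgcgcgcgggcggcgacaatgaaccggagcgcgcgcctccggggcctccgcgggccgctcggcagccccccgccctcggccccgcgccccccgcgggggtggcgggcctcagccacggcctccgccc
Nr4a3: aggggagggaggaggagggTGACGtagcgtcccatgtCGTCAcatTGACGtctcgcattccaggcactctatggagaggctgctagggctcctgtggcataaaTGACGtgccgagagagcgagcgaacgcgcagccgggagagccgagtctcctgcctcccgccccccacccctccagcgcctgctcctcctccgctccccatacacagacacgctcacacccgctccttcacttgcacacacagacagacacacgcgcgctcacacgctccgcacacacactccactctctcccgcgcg
Dusp1: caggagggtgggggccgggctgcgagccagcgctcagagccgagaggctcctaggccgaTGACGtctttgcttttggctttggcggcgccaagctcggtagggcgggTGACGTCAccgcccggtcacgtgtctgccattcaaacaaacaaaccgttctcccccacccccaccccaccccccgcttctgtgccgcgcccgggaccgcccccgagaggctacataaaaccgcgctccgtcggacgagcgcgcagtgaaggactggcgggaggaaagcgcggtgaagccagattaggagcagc
Cytip: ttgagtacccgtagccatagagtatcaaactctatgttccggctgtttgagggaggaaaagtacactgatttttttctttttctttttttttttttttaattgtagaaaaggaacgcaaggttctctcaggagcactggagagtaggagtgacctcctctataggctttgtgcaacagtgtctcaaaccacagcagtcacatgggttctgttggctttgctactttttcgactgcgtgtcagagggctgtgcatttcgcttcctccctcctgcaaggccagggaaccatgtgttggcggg

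Each of the 3 NR4A promoters held 4 short motifs and no full one, Dusp1 held 2 short motifs, one of them within a full motif 143 bases before the start, and Cytip held neither. The short motifs of Nr4a1 began 233, 213, 69 and 40 bases before the start. A promoter entry was found for 15614 of the tested genes, of which 28.0% had at least 1 short motif, 2.72% a full one and 30 genes (0.192%) 4 or more short ones. Among the genes that rose, 35.8% of 779 had a short motif and 3.08% a full one, and among the genes that fell, 35.2% of 862 and 3.02%. Promoters with 4 or more short motifs were 5 of the 779 (0.642%) and 1 of the 862 (0.116%). Of the cAMP and CREB target genes that rose, 13 of 15 with an entry had a short motif, in a list made of known CREB targets. Dusp1, a phosphatase that switches off MAP kinases, rose from 10.49, 10.99 and 10.79 to 11.32, 11.38 and 11.30 (0.58 ± 0.10, adjusted p = 0.00281). A match is a run of letters and not a measured binding site.

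Of 18 measured phosphodiesterases, the enzymes that break down cyclic nucleotides, 7 rose, none fell and 11 did not pass, against 4.71% and 5.45% of all genes, with a median of 0.10. Without vehicle replicate 3, 1 fell. Pde7b went from 6.78, 6.76 and 7.02 to 8.74, 8.55 and 8.73 (1.82 ± 0.11, 3.53-fold, adjusted p = 3.02e-07). Pde4d went from 7.99, 7.78 and 7.75 to 9.31, 9.33 and 9.11 (1.41 ± 0.09, adjusted p = 9.22e-07). Pde10a went from 6.65, 6.84 and 6.79 to 8.03, 7.98 and 8.07 (1.27 ± 0.06, adjusted p = 4.49e-08). In each of these the treated arrays lay at least 1 log2 unit above every vehicle array. Pde8a (1.06 ± 0.08), Pde3b (0.89 ± 0.06) and Pde4b (0.75 ± 0.13) followed, and Pde7a had the smallest increase (0.36 ± 0.09, adjusted p = 0.0246), which did not pass without vehicle replicate 1 (0.0664) or AE1-329 replicates 2 (0.0521) or 3 (0.111). All 7 encode enzymes that act on cAMP.

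Changes in cyclase, protein kinase A, CREB coactivator, deacetylase and desensitization genes went both ways. Of 24 adenylyl cyclase, protein kinase A and EPAC genes 3 rose and 3 fell, or 2 and 5 without vehicle replicate 1. For this and the next lists, the shares over all genes are 4.71% that rose and 5.45% that fell. The protein kinase A inhibitors moved apart, Pkig from 8.08, 8.48 and 8.45 to 8.80, 8.76 and 8.90 (0.48 ± 0.09, adjusted p = 0.00307) and Pkib from 8.04, 7.88 and 8.05 to 7.30, 7.25 and 7.26 (-0.72 ± 0.08, 7.51e-05). The regulatory subunit gene Prkar2a rose by 0.38 ± 0.07 (adjusted p = 0.00490) and the anchoring protein gene Akap1 fell by 0.33 ± 0.07 (0.00763). Of 19 genes of CREB, its CRTC coactivators, the SIK kinases that restrain them and class IIa deacetylases, 5 rose and 2 fell, or 3 and 2 without AE1-329 replicate 1. Sik3 (0.59 ± 0.05, adjusted p = 9.93e-06) and Sik1 (0.53 ± 0.06, 5.54e-05) rose. Among the class IIa deacetylases Hdac5 rose (0.54 ± 0.10, 0.00368) while Hdac9 went from 9.45, 9.48 and 9.56 to 8.10, 8.02 and 8.08 (-1.43 ± 0.07, 9.52e-08). Hdac4 was 10.66 in vehicle replicate 1 against 8.87 and 9.07 in the other 2 vehicle arrays, and did not pass (-0.64 ± 0.33, adjusted p = 0.30). Of 15 genes of receptor desensitization 4 rose, with Arrdc3 (0.60 ± 0.10, 0.00201) and Arrdc4 (0.36 ± 0.06, 0.00131), both arrestin-domain proteins, and 1 fell. Those counts were 3 and 2 without vehicle replicate 1, 2 and 1 without vehicle replicate 3 or AE1-329 replicate 2, and 2 and 0 without AE1-329 replicate 1.

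**Figure D3:**
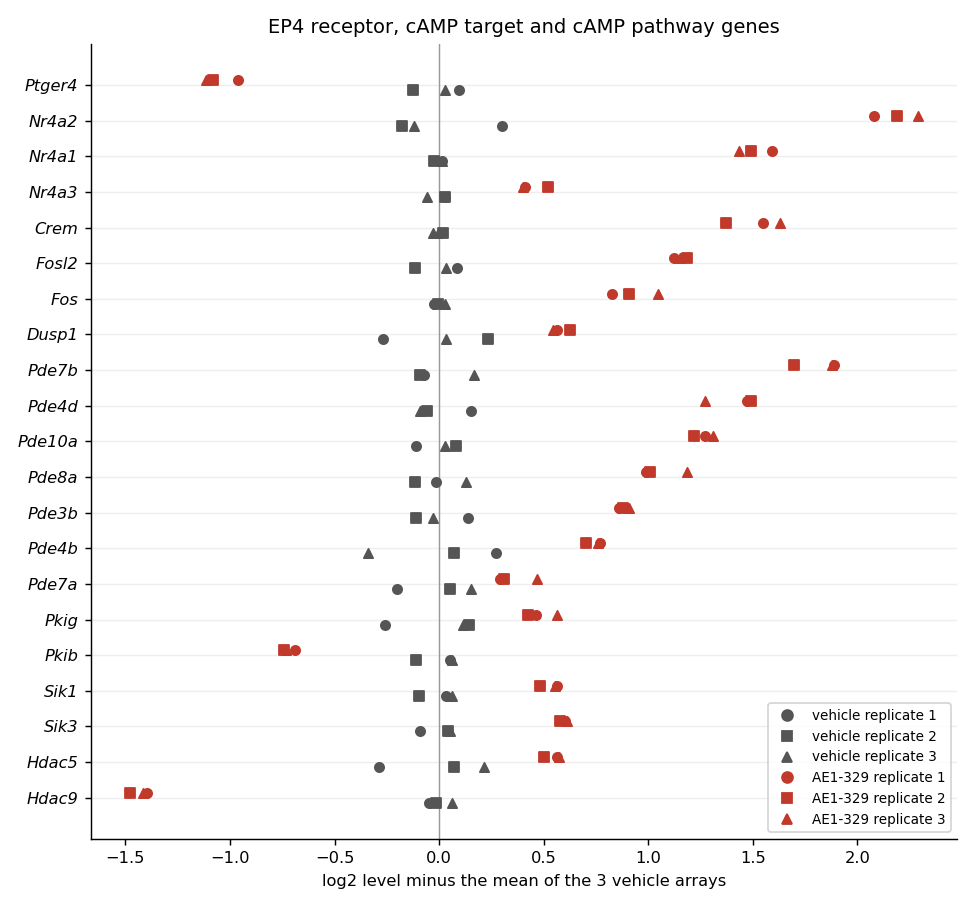
Rows are the EP4 gene Ptger4, cAMP target genes, phosphodiesterases and regulators of protein kinase A and CREB, and the x axis is the log2 level of each array minus the mean of the 3 vehicle arrays, with vehicle in grey, AE1-329 in red and circles, squares and triangles for replicates 1, 2 and 3. Ptger4, Pkib and Hdac9 lie to the left of vehicle, and the 7 phosphodiesterases to the right by 0.36 to 1.82.

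Inflammatory genes moved in both directions. Of 60 measured genes in the lists of NF-kB targets and inhibitors, cytokines and chemokines, 6 rose and 7 fell, against 4.71% and 5.45% of all genes, with a median of 0.00. With the litter as a block 9 rose and 10 fell, against 6.06% and 6.58%. Il1b, the interleukin-1 beta gene, went from 6.76, 6.40 and 6.63 to 7.73, 7.66 and 8.43 (1.34 ± 0.16, 2.54-fold, adjusted p = 0.000132). Tnf went from 9.33, 9.36 and 9.62 to 8.76, 8.54 and 8.81 (-0.73 ± 0.09, 1.66-fold lower, adjusted p = 0.000129). The groups did not overlap for either gene. The monocyte-attracting chemokine gene Ccl2 went from 10.07, 10.16 and 10.37 to 8.72, 9.29 and 9.38 (-1.07 ± 0.16, adjusted p = 0.000780). Ccl4, another chemokine gene, went from 10.00, 10.26 and 10.36 to 8.80, 8.69 and 8.99 (-1.38 ± 0.10, adjusted p = 1.58e-06). For these chemokines all treated arrays lay at least 0.6 log2 units below every vehicle array. Tnfaip3, which encodes the NF-kB inhibitor A20, fell from 9.40, 9.51 and 9.50 to 8.5, 8.46 and 8.55 (-0.97 ± 0.06, adjusted p = 2.51e-07). The NF-kB family genes Rel (0.43 ± 0.06, 0.000699), Nfkb2 (0.52 ± 0.08, 0.00139) and Bcl3 (0.48 ± 0.08, 0.00131) and the cytokine gene Il15 (0.73 ± 0.12, 0.00156) rose. Il6 (-0.06 ± 0.12, adjusted p = 0.862), Il10 (-0.02 ± 0.14, 0.976), Cxcl1 (-0.14 ± 0.10, 0.469) and Cxcl2 (-0.08 ± 0.10, 0.768) did not pass, with levels of Il6 and Il10 near 5 on every array. By list, 3 of 19 NF-kB genes rose and 3 fell, 2 of 20 cytokines rose and 1 fell, and 1 of 21 chemokines rose and 3 fell. With the block 6 NF-kB genes rose and 5 chemokines fell. No chemokine rose without vehicle replicate 2 or AE1-329 replicates 1 or 3.

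Replicate 3 of AE1-329 stood apart in some inflammatory genes. In it 16 genes lay at least 1 log2 unit above both other AE1-329 arrays and 13 at least 1 below both. Vehicle replicate 1 had 18 and 1 such genes, vehicle replicate 3 had 1 and 12, and the remaining 3 arrays of this comparison had at most 2 in either direction. Cxcl10, a chemokine induced by interferon, was 7.29, 7.61 and 10.92 with AE1-329 and 8.26, 7.92 and 8.66 in vehicle. Cd69, an early activation receptor, was 4.75, 4.89 and 7.40 against 5.11, 5.01 and 5.07. Acod1, which makes itaconate, was 7.15, 7.48 and 9.65 against 7.81, 7.25 and 7.63. In these 3 genes replicates 1 and 2 with AE1-329 lay below or within the vehicle range, and replicate 3 lay far above it. Further genes of the 16 were Rsad2, Ifit1, Ifit2, Ifit3, Ifit3b, Mx1, Cmpk2, Usp18, Ifi203 and Ifi209, all genes induced by interferon, the guanylate-binding protein gene Gbp5, the chemokine gene Ccl5 and Lrmda. Of the 16, 13 were also highest in replicate 3 among the vehicle arrays, 8 of them by at least 0.5, and Lrmda was as high in vehicle replicate 3 (8.95) as in AE1-329 replicate 3 (8.81). None of the 16 passed, with or without the litter as a block. Without AE1-329 replicate 3, Cxcl10 turned from 0.32 ± 0.67 (adjusted p = 0.874) to -0.83 (0.0101), Cd69 from 0.62 to -0.24 (0.185) and Acod1 from 0.53 to -0.25 (0.404). The 13 genes that were low there, with the insulin-like growth factor binding protein gene Igfbp7 and the inhibitor of metalloproteases gene Timp3 among them, were lowest in replicate 3 of all 4 treatments of the series. None of the 13 passed, though Timp3 (adjusted p = 0.0114) and Crct1 (0.0433) passed with the litter as a block. The genes in this paragraph were picked by their values in replicate 3.

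The calls among inflammatory genes did not rest on that array, apart from 5 genes. Without it, 5 of the 60 rose and 7 fell, against 2.97% and 4.14% of all genes, and without replicate 3 of both groups 6 rose and 6 fell, against 3.35% and 3.57%. Il1b, which was highest in replicate 3, rose by 1.10 (adjusted p = 2.38e-05), Tnf changed by -0.78 (0.000379), Ccl4 by -1.46 (4.23e-06), Ccl2 by -1.19 (0.000917) and Tnfaip3 by -0.99 (2.53e-06). Trem1 rose by 1.37 without it (9.17e-06). Clec4e, a receptor for microbial glycolipids, rose by 1.41 ± 0.11 over all arrays (3.27e-06) and by 1.27 without it (3.81e-06). Calls changed for 5 of the 60. Nfkbiz, which encodes an atypical IkB protein, went from an adjusted p of 0.0397 to 0.0659, the chemokine gene Ccl3 from 0.0269 to 0.0807 and Cxcl14 from 0.0183 to 0.0726, with changes of 0.33 or less in size, and Cxcl10 and Ccl7 came to pass. Those 3 also failed without other arrays: Nfkbiz without AE1-329 replicates 1 (0.0804) or 2 (0.160) or vehicle replicates 1 (0.115) or 3 (0.103), Ccl3 without AE1-329 replicate 2 (0.108) or vehicle replicate 1 (0.0575), and Cxcl14 without AE1-329 replicate 1 (0.0629) or vehicle replicate 2 (0.0512). Ccl7 went from -0.56 ± 0.19 (0.0898) to -0.73 (0.0365), and fell with the litter as a block (adjusted p = 7.32e-05), as each of its litters did, from 8.40, 8.60 and 8.89 to 7.72, 8.08 and 8.42.

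**Figure D4:**
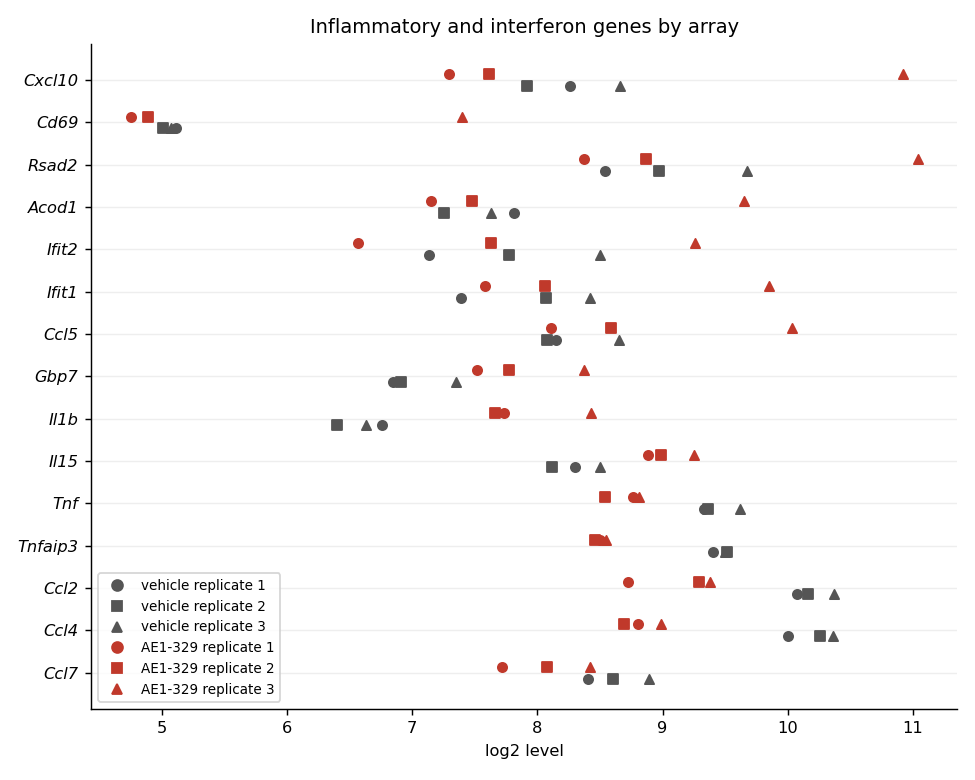
Rows are inflammatory and interferon-induced genes, and the x axis is the log2 level on each array, with vehicle in grey, AE1-329 in red and circles, squares and triangles for replicates 1, 2 and 3. In the rows from Cxcl10 to Ccl5 the AE1-329 array of replicate 3 stands alone at the right (10.92 for Cxcl10), whereas for Tnf, Tnfaip3, Ccl2 and Ccl4 all 3 treated arrays lie left of vehicle.

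Type I interferon-stimulated genes did not pass as a rule: 0 of 30 measured passed in limma, and 4 had an unadjusted p under 0.05, which 21.1% of all genes had. Their median deviation from the other replicates of the group was 0.45 in AE1-329 replicate 3 and 0.35 in vehicle replicate 3, and it was 0.24 and 0.40 in replicate 3 of the 2 Aβ42 groups. The list's median change was 0.12, -0.11 without AE1-329 replicate 3, and it had 2 genes that rose without vehicle replicate 3. With the litter as a block 6 of 30 rose and none fell, against 6.06% of all genes that rose and 6.58% that fell in that fit. The antiviral RNA sensor gene Dhx58 went from 8.30, 8.74 and 9.07 to 9.10, 9.13 and 9.51 (0.54 ± 0.19, adjusted p = 0.0968, and 0.000511 with the block). Irf7, a regulator of interferon genes, was 7.44, 8.35 and 9.04 against 8.46, 8.85 and 9.27 (0.58 ± 0.32, 0.347, and 0.0459 with the block). In both genes the treated array was higher in each litter, while for Irf7 the groups overlapped. Stat2 (0.0231), Ddx58 (0.0131), Oas1b (0.0211) and Oasl1 (0.0138) passed with the block alone. Of 14 interferon-gamma targets 1 rose, Gbp7, from 6.85, 6.91 and 7.35 to 7.52, 7.77 and 8.37 (0.85 ± 0.20, adjusted p = 0.0167). It did not pass without AE1-329 replicate 3 (0.0607) or vehicle replicates 1 (0.0637) or 2 (0.0526), and passed with the block (0.000199). Of 18 interferon receptor and JAK-STAT genes 5 rose and none fell, and 3 rose without AE1-329 replicates 2 or 3. For both this list and the interferon-gamma targets, 4.71% of all genes rose and 5.45% fell. Stat4 went from 5.23, 5.27 and 5.27 to 6.25, 6.51 and 6.52 (1.17 ± 0.09, adjusted p = 2.53e-06). Stat3, the transducer of IL-6 and IL-10 signals, went from 10.54, 10.53 and 10.51 to 11.25, 11.25 and 11.24 (0.72 ± 0.04, adjusted p = 4.03e-07), with little spread within either group.

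Some receptors and costimulatory molecules of innate immunity also moved. The counts below stand beside 4.71% of all genes that rose and 5.45% that fell. The B7 ligands rose: Cd86 from 8.27, 8.16 and 8.13 to 9.41, 9.42 and 9.61 (1.29 ± 0.07, adjusted p = 1.22e-07) and Cd80 from 7.83, 7.17 and 7.32 to 9.21, 9.26 and 9.30 (1.82 ± 0.12, 9.86e-07). Both are ligands of CD28 and CTLA-4 on T cells. Of 17 antigen presentation and costimulation genes 3 rose, the third being Cd83 (0.30 ± 0.05, 0.00214), and none fell. Cd14, the coreceptor for lipopolysaccharide, went from 11.60, 11.76 and 11.90 to 12.82, 12.89 and 12.93 (1.12 ± 0.07, adjusted p = 3.52e-07). Of 18 Toll-like receptor genes and adaptors 3 rose and 5 fell, the latter with Tlr1 (-0.59 ± 0.06, 2.58e-05) and Tlr7 (-0.36 ± 0.06, 0.00148). These counts were 1 and 2 without AE1-329 replicate 2, and 1 and 3 without AE1-329 replicate 3. In the TREM family of 8 genes Trem1 alone passed, from 6.09, 5.87 and 6.01 to 7.29, 7.43 and 7.84 (1.53 ± 0.13, adjusted p = 6.07e-06), and another gene passed without vehicle replicates 2 or 3. Among chemokine receptors, Cxcr4 (0.51 ± 0.05, adjusted p = 3.41e-05) and Ccr1 (0.65 ± 0.11, 0.00150) rose, while Cx3cr1 and Cxcr2 fell.

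Genes of the homeostatic microglial state either fell or did not pass: 5 of 19 fell and none rose, against 5.45% and 4.71% of all genes, with a median of -0.01. When any 1 of the AE1-329 arrays was left out 4 fell. With the litter as a block 5 fell and 1 rose, against 6.58% and 6.06% of all genes. Cx3cr1, the fractalkine receptor, went from 11.97, 11.84 and 11.70 to 11.18, 11.03 and 10.85 (-0.82 ± 0.10, 1.76-fold lower, adjusted p = 0.000129). P2ry12, the ADP receptor that guides microglial processes, went from 9.5, 8.95 and 9.08 to 8.64, 8.62 and 8.49 (-0.59 ± 0.11, 0.00310). P2ry13 changed by -0.57 ± 0.09 (0.00113) and Tgfbr2, a receptor of the TGF-beta signal on which this state depends, by -0.56 ± 0.07 (0.000190). In each of these 4 genes the groups were apart. In RNA of whole cultures, fewer cells of a type and less RNA per cell cannot be told apart. Genes that mark disease-associated microglia did not rise either, since 5 of 22 fell and none rose, among them Ch25h, the lectin receptor gene Clec7a (-0.54 ± 0.06, 5.54e-05), Ank (-0.53 ± 0.08, 0.00115) and the lipoprotein lipase gene Lpl (-0.31 ± 0.05, 0.00177). In this list 4 fell without vehicle replicate 3 or AE1-329 replicates 1 or 2. Of the 8 measured NADPH oxidase and nitric oxide synthase genes 1 fell, the proton channel gene Hvcn1 (-0.45 ± 0.09, 0.00436), and without vehicle replicate 3 another rose. Cybb, the catalytic oxidase subunit, was 12.78, 12.69 and 12.70 against 12.59, 12.67 and 12.72 (-0.06 ± 0.06, 0.651).

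Among 13 genes of proteases that can degrade amyloid peptides 2 rose and 4 fell. Over all genes 4.71% rose and 5.45% fell, which stands beside each list of this paragraph. Ece1, an endothelin-converting enzyme, went from 9.47, 9.35 and 9.36 to 10.55, 10.47 and 10.58 (1.14 ± 0.06, 2.21-fold, adjusted p = 9.52e-08), and its relative Ece2 from 8.81, 9.04 and 9.24 to 8.51, 8.40 and 8.56 (-0.54 ± 0.09, 0.00206). The paralogs thus went opposite ways with no overlap of groups in either. The membrane metalloprotease gene Mmp14 rose by 0.60 ± 0.09 (0.000842), and Plau fell. Lipid genes with large changes were Dgat1 and Abca1, the exporter of cholesterol, which went from 11.01, 11.14 and 11.10 to 12.13, 12.13 and 12.20 (1.07 ± 0.05, adjusted p = 5.29e-08). Of 11 LXR and lipid efflux genes it was the only one to rise and Ch25h the only one to fall, though without vehicle replicate 1 another 1 passed each way. Odc1, the rate-limiting enzyme of polyamine synthesis, went from 7.94, 8.42 and 8.74 to 9.21, 9.61 and 9.74 (1.15 ± 0.19, adjusted p = 0.00146), while Srm, the next enzyme of that pathway, fell by 0.70 ± 0.08 (0.000101). Pfkfb3, a driver of glycolysis, fell from 9.93, 9.86 and 9.97 to 9.07, 8.88 and 9.09 (-0.90 ± 0.06, 1.18e-06), and the lactate exporter gene Slc16a3 rose by 0.84 ± 0.11 (0.000339). Of 18 NRF2 target genes 3 rose and 1 fell (2 without vehicle replicate 2, none without vehicle replicate 3 or AE1-329 replicates 2 or 3), led by the cystine transporter gene Slc7a11 (0.85 ± 0.11, 0.000257) and the sulfiredoxin gene Srxn1 (0.49 ± 0.05, 4.70e-05).

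Of 22 growth and trophic factors 3 rose and 1 fell, where 4.71% of all genes rose and 5.45% fell. Vegfa, the vascular growth factor, went from 7.93, 7.68 and 7.51 to 8.92, 8.73 and 8.84 (1.12 ± 0.10, 2.18-fold, adjusted p = 1.27e-05). Hgf, hepatocyte growth factor, went from 10.37, 10.14 and 10.18 to 11.06, 11.10 and 11.14 (0.87 ± 0.08, 1.04e-05). Pdgfb went from 10.08, 10.33 and 10.35 to 9.68, 9.30 and 9.53 (-0.75 ± 0.11, 0.000822). The groups did not overlap for any of these 3 genes. The other one that rose, Tgfb3, was scattered in vehicle (8.32, 8.71 and 7.52, against 9.24, 9.58 and 9.17; 1.15 ± 0.32, 0.0372). It did not pass without vehicle replicates 1 (0.0661) or 3 (0.112) or without AE1-329 replicates 1 (0.0845), 2 (0.136) or 3 (0.0720). Among 12 endothelial and mural markers Pecam1 (1.22 ± 0.08, 5.23e-07) and the VEGF receptor gene Kdr (0.64 ± 0.10, 0.00144) rose and the VEGF receptor gene Flt1 fell (-0.44 ± 0.06, 0.000329), with another that fell without AE1-329 replicate 1. The tight junction gene Cldn5, a defining gene of brain endothelium, was 6.97, 7.11 and 6.92 against 6.93, 6.81 and 6.69 and did not pass (adjusted p = 0.105). The mean level of this marker list ranged from 6.93 to 7.19 in vehicle and from 7.07 to 7.29 with AE1-329, and its part in these changes was not tested.

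Of 28 measured cell cycle genes 10 fell, 1 rose and 17 did not pass, against 5.45% and 4.71% of all genes, with a median of -0.17. Cdk6, a kinase of early G1, went from 10.28, 10.45 and 10.41 to 9.34, 9.29 and 9.34 (-1.06 ± 0.05, 2.08-fold lower, adjusted p = 8.65e-08). Ccnd1, the cyclin that activates it, went from 11.30, 11.42 and 11.41 to 10.30, 10.52 and 10.43 (-0.96 ± 0.10, 6.07e-05). Both were lower in all treated arrays by at least 0.7 log2 units. The S phase cyclin gene Ccne2 (-0.73 ± 0.11, 0.000853), the transcription factor gene E2f1 (-0.48 ± 0.05, 4.85e-05), the replication clamp gene Pcna (-0.57 ± 0.09, 0.000952) and the helicase genes Mcm2, Mcm3, Mcm4 and Mcm6 (-0.42 to -0.67) fell as well. The 1 member that rose was Cdkn1b, which encodes the inhibitor p27 (0.34 ± 0.07, 0.00960). Myc, a driver of growth, went from 9.07, 9.16 and 9.47 to 8.29, 8.25 and 8.19 (-0.99 ± 0.09, 1.99-fold lower, adjusted p = 1.42e-05). Its antagonist Mxi1 went from 9.65, 9.82 and 9.76 to 11.10, 11.17 and 11.23 (1.42 ± 0.06, 2.68-fold, adjusted p = 2.37e-08). In the MYC, MAX and MXD network of 14 genes 3 rose and 1 fell, or 2 and 2 without vehicle replicates 1 or 2, and without AE1-329 replicates 2 or 3 Mxi1 alone rose. The antiproliferative gene Btg1 rose by 0.71 ± 0.06 (3.75e-06).

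Of 16 genes of apoptosis 5 rose and 4 fell, against 4.71% and 5.45% of all genes. The antiapoptotic genes Bcl2l1 (9.30, 9.71 and 9.66 against 8.71, 8.68 and 8.82; -0.82 ± 0.10, adjusted p = 0.000117) and Bcl2 (-0.75 ± 0.13, 0.00183) fell. The proapoptotic BH3-only genes Pmaip1 (0.72 ± 0.07, 1.69e-05) and Bcl2l11 (0.34 ± 0.05, 0.000489) rose. Of 12 dual-specificity phosphatases, which switch off MAP kinases, 2 rose and 5 fell, among them Dusp5 (0.56 ± 0.07, 0.000133), Dusp7 (-0.61 ± 0.07, 0.000133) and Dusp16 (-0.53 ± 0.06, 4.70e-05). Of 20 transcription factors of macrophages 4 rose, 2 without AE1-329 replicate 3, and none fell, though 2 fell without vehicle replicate 1 and 1 without vehicle replicate 2. Cebpb, a bZIP factor and CREB target, rose by 0.75 ± 0.07 (2.99e-05) and Nfil3 by 0.63 ± 0.09 (0.000738).

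The same agonist was also given to cells treated with Aβ42, and its change there, Aβ42 with AE1-329 minus Aβ42 alone, uses none of the 6 arrays above, although the litters are the same. In that setting 1194 genes rose and 1005 fell (5.99% and 5.04%). Of the 939 genes raised without Aβ42, 541 rose with it, which is 57.6% of that list and 45.3% of the list with Aβ42, and 13 fell. Of the 1087 lowered, 523 fell with it (48.1% and 52.0%), and 22 rose. All 15 largest increases rose there too, and 13 of the 15 largest decreases fell. The changes were smaller in size with Aβ42 in 14 of 15 and 14 of 15 of them, though these genes were chosen for their large change without it.

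The difference between the 2 settings passed limma's interaction test for 389 genes (1.95%), and for 677 (3.4%) with the litter as a block, 254 without AE1-329 replicate 2, 246 without replicate 2 of Aβ42 alone and 254 without its replicate 3. Of the genes that AE1-329 changed without Aβ42, 123 that rose and 109 that fell were among the 389. Nr4a2 rose by 2.19 without Aβ42 and by 0.85 with it (adjusted p of the difference 0.000521), Pde10a by 1.27 and 0.20 (3.93e-05), Pde7b by 1.82 and 0.70 (0.00197) and Cytip by 4.26 and 3.21 (0.00224). Crem did not differ detectably (1.52 and 1.31, adjusted p of the difference 0.723), nor did Nr4a1 (1.51 and 1.12, 0.0946). Other genes changed more with Aβ42, as Stat4 did (1.17 and 2.58, 9.73e-05), or Trem1 (1.53 and 2.57, 0.00825) and the arginase gene Arg2 (0.64 and 2.15, 0.000103). Directions opposed each other for Pfkfb3 (-0.90 and 0.97, 6.17e-07), Il15 (0.73 and -0.55, 0.00173), Rel (0.43 and -0.43, 0.000265) and Radx (-1.18 and 0.38, 0.000243). Tnfaip3 changed by -0.97 without Aβ42 and by -0.08 with it (adjusted p of the difference 9.73e-05).

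**Figure D5:**
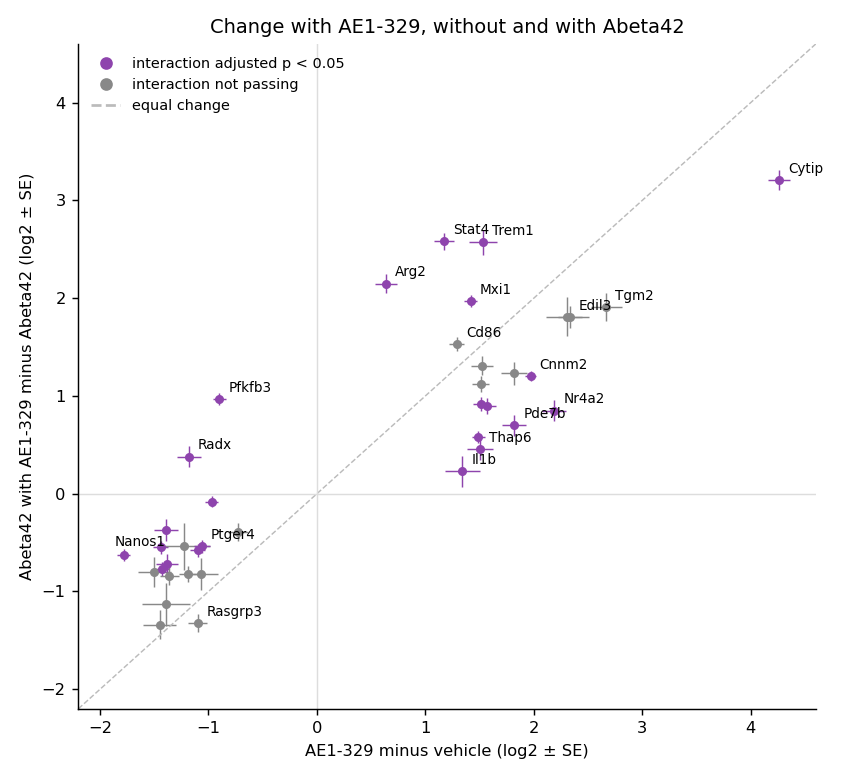
Each point is 1 of the 15 highest, the 15 lowest or 9 other genes of the text, with the change with AE1-329 without Aβ42 on the x axis and with Aβ42 on the y axis (log2 ± SE of the limma fit), purple where the interaction passed and with a dashed line of equal change. Cytip lies below the line at 4.26 and 3.21, and Stat4, Trem1, Arg2 and Pfkfb3 lie above it.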

How the data were processed

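RNA of 12 microglia cultures was measured on Affymetrix Mouse Gene 1.0 ST arrays, 3 per treatment. The deposited values are on a log2 scale and were normalized by the authors. The submitters' processing notes name RMA and Partek 6.5, with no further detail on the steps, and RMA pulls extreme values together, so a fold change can be understated. Values ran from 2.79 to 13.95, with array medians of 6.97 to 7.05. Signal over background is unknown here, and precision is limited by how few arrays there are.

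Of 35556 probe sets, 21789 had 1 gene symbol, 1621 several and 12146 none in the platform annotation. Symbols were updated through RefSeq (21698 matched), and only probe sets with 1 symbol were used. For 999 of the 19938 genes with several probe sets the one with the highest mean was kept. In none of the genes that passed did another probe set pass the opposite way.

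The limma package (version 3.58.1, R 4.3.3) fitted group means to the 12 arrays together (8 residual degrees of freedom), with no litter term, and p-values were adjusted by Benjamini-Hochberg over all genes. The labels tie the replicates to separate litters, and arrays with the same number deviated together (r = 0.13, 0.40 and 0.49 across genes for the 3 AE1-329 and vehicle pairs, against -0.43 to 0.08 for the 6 others), so the numbers pair the samples. Alternatives were the litter as a block, the 6 arrays alone, another prior, quantile normalization again, other choices of probe set, a filter at the median level, and leaving out each array, each litter, or replicate 3 of both groups. In a test on simulated data for AE1-329 against vehicle, over 19938 genes, 86.4% of changes of 0.5 and 98.5% of changes of 1 (log2) were recovered. There 14 unchanged genes were called as well. The simulated noise was independent between arrays, with no shared litters and the same spread in every group. Recovery in the real arrays, which differ in these points, was therefore not measured.

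The named genes are the 15 highest and 15 lowest that passed with groups that did not overlap, the 4 members of each list with the smallest p, a fixed set of EP4, cAMP and inflammatory genes, and up to 6 inflammatory genes highest in AE1-329 replicate 3. Predicted genes (Gm symbols) were not named. A further 41 genes, with the interferon-stimulated, phosphodiesterase and Mcm genes among them, were named after their values were seen, as were Igfbp7, Timp3 and Crct1. The gene lists, 39 of pathways and 9 of cell type markers, and the genes to report were chosen with earlier results of these data known.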

Additional observations from a re-analysis of the deposited data

Results flagged for a closer look

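Among the 15 highest, the 15 lowest and the fixed set of genes, 19 had a change with AE1-329 that differed with Aβ42. The call is limma's interaction test at an adjusted p under 0.05, which 389 of all 19938 genes (1.95%) passed. Genes named through the lists are not counted here, though some passed too, such as Pde10a (smaller with Aβ42), Stat4 (larger) and Pfkfb3 (opposite). The values here are the change with Aβ42 minus the change without it, in log2 units. The 15 highest and 15 lowest were chosen for a large change without Aβ42, which enters this difference. Such a choice favours a smaller change with Aβ42 among them. For genes that AE1-329 raised, the difference was -1.05 for Cytip, -1.35 for Nr4a2, -0.77 for Cnnm2, -1.12 for Pde7b, -0.67 for Dgat1, -0.59 for Ttc39b, -1.04 for Thap6, -0.91 for 1700025G04Rik and -1.12 for Il1b. All but Il1b also rose with Aβ42, by less, and Il1b did not pass there (0.23, adjusted p = 0.504). Trem1 rose more with Aβ42 (1.04). For genes that AE1-329 lowered, it was 1.16 for Nanos1, 0.89 for Chn2, 0.66 for Hdac9, 1.02 for Arap2, 0.66 for Ccl4, 0.52 for Kcnj2 and 0.52 for Ptger4, so each fell less. Radx, at 1.56, fell without Aβ42 and was at 0.38 with it. Ptger2, which did not pass without Aβ42 (-0.11), had a difference of 0.68.

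Some of these calls rest on single arrays. That of Ptger4 did not pass without AE1-329 replicate 2 (adjusted p = 0.0529), Aβ42 replicate 2 (0.0563) or replicate 2 of both agents together (0.0520). That of Il1b did not pass without any one of the 3 Aβ42 arrays (0.0600, 0.0671 and 0.0548) or replicates 2 (0.0683) or 3 (0.0553) of both agents. That of Kcnj2 did not pass without AE1-329 replicates 2 (0.0603) or 3 (0.0558), Aβ42 replicate 2 (0.0623) or replicates 1 (0.0610) or 3 (0.0518) of both agents. That of Ccl4 did not pass without vehicle replicates 2 (0.0547) or 3 (0.0531), AE1-329 replicates 1 (0.0712) or 2 (0.0791), Aβ42 replicates 2 (0.0649) or 3 (0.0802), or replicates 1 (0.0788) or 3 (0.0553) of both agents.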

How the results depend on the processing

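Of 173 named genes that passed, 108 passed under every alternative, and of all named genes Cxcl10 alone turned direction with a call, to -0.83 without AE1-329 replicate 3, -0.65 without replicate 3 of both groups and -0.65 without litter 3, within a range of -0.83 to 0.98 over single arrays and litters left out. With the 6 arrays alone, 970 genes changed, 448 higher and 522 lower, while the same step for AE1-329 added to Aβ42 gave 2955 against 2199. The replicate block gave 2520 genes that changed for AE1-329 against vehicle, in which 2007 of the 2026 passed, and 677 for the interaction. It made 13 named genes pass and ended the call of none. Leaving out 1 array or litter gave 812 to 2345 changed genes, 371 to 1107 higher and 441 to 1370 lower, 887 to 1626 with Aβ42, 58 to 557 for the interaction and 99 to 176 of the list genes, 172 of which passed over all arrays. Without replicate 3 of both groups 711 genes were lower. The interferon-stimulated genes' median deviation of 0.45 in AE1-329 replicate 3 stood against -0.31 and -0.16 in its replicates 1 and 2, -0.39, 0.01 and 0.35 in vehicle, -0.25, 0.01 and 0.24 with Aβ42 and -0.31, -0.07 and 0.40 with both agents. The cause of these differences was not tested. With 3 arrays per group, small changes near the threshold are the least certain.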

Other observations

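Several genes of ribosome assembly fell with AE1-329. The families here were picked by symbol after their values were seen, so their counts carry no test, and over all genes 4.71% rose and 5.45% fell. Without AE1-329 replicate 3 these shares were 2.97% and 4.14% (592 and 826 genes). Leaving out an array lowered the totals in any case, to 677 and 783 for AE1-329 replicate 1 and to 699 and 711 for its replicate 2. Of 8 Nop genes, which encode nucleolar proteins, 5 fell and none rose, with a median of -0.41 against -0.01 over all genes, led by Nop58 (-0.79) and Nop56 (-0.61). Of 10 Utp genes, subunits of the complex that processes the small ribosomal RNA, 6 fell (4 without AE1-329 replicate 3), among them Utp20 (-0.64). Of 7 nucleolar Wdr genes 6 fell, with a median of -0.47. Of 9 exosome genes (Exosc) 5 fell, 2 without AE1-329 replicate 3, and of 7 Rrp genes 4 fell, 1 without it. The 30 measured Rpl genes, ribosomal proteins themselves, had none that passed in limma, with a median of 0.05. Of 20 nuclear pore genes (Nup) 6 fell, with or without AE1-329 replicate 3. Nearer to the share over all genes were the mitochondrial ribosomal genes (Mrpl), of which 4 of 48 fell (2 without that array), and the proteasome genes (Psm), of which 4 of 40 fell (1 without it), with none higher in either. Of 5 Polr1 genes 2 fell.

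Other families, picked in the same way, held members that rose, beside 4.71% of all genes that rose and 5.45% that fell. Without AE1-329 replicate 3 the shares over all genes were 2.97% and 4.14%. Of 8 Bbs genes, whose products serve traffic to cilia, 4 rose, among them Bbs4 (0.49), and 3 without AE1-329 replicate 3. Of 14 Ift genes, of transport within cilia, 4 rose and none fell, 2 without that array. Of 18 histone demethylase genes (Kdm) 6 rose, Kdm5b by 0.48, and 1 fell, but without AE1-329 replicate 3 only 2 rose. Of 18 autophagy genes (Atg) 5 rose and none fell, 3 without that array.

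The remaining lists are given beside 4.71% of all genes that rose and 5.45% that fell. Of 15 complement genes 3 rose, 1 without vehicle replicates 1 or 2 or AE1-329 replicates 2 or 3. Of 26 scavenger and phagocytic receptors 2 rose and 2 fell, which became 1 and 1 without vehicle replicate 2 or AE1-329 replicate 3, 2 and 0 without vehicle replicate 3, and 1 and 0 without AE1-329 replicates 1 or 2. Of 18 motility and adhesion genes 5 rose and 3 fell, which became 3 and 2 without vehicle replicate 1 3 and 1 without AE1-329 replicates 2 or 3, and 5 and 1 without vehicle replicate 3. Of 13 mRNA decay factors 4 rose and 1 fell, or 3 and 0 without vehicle replicates 2 or 3 or AE1-329 replicates 1 or 2. Of 15 cholesterol synthesis genes 1 rose and 2 fell, and none rose when vehicle replicate 1, vehicle replicate 2 or any one of the 3 AE1-329 arrays was left out, with 4 that fell without vehicle replicate 2 and 1 without AE1-329 replicate 2. Of 20 genes of the unfolded protein and ATF4 response 3 fell and none rose, with Asns at -0.34, and 1 rose when any one vehicle array or AE1-329 replicate 2 was left out. Of 19 alternative activation genes 2 rose, Il10ra (0.37) and Il4ra (0.29), and 1 fell, which no longer passed when any one array other than vehicle replicate 2 was left out. Of 17 glycolysis and hypoxia genes 2 rose and 2 fell, with 4 that fell without vehicle replicate 1 and 1 without AE1-329 replicate 1. None of 6 lymphocyte and erythroid markers and none of 4 sex-linked genes passed.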
